A study of Mus musculus with 6 samples.

Results

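The genes described here are 10 secreted cytokines and colony-stimulating factors other than the interleukin-1 family, made by stimulated neutrophils. They were chosen by name (Tnf, Il6, Il10, Il12b, Il23a, Il15, Osm, Csf1, Csf3 and Tgfb1), and all 10 were found among the 54532 genes measured. RNA sequencing was done on neutrophils isolated from mouse bone marrow and cultured with Candida albicans for 6 h, with 3 WT and 3 PGRN KO libraries. PGRN KO mice lack progranulin, a secreted and lysosomal glycoprotein encoded by Grn. The comparison asks how the loss of PGRN changes transcript levels in neutrophils that meet the fungus.

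All 6 libraries had the strain C57BL/6J, the same fungal treatment and the same time in culture, and there was no library without the fungus. The knockout was present in every cell of the mouse throughout life. The WT mice came from another supplier than the PGRN KO mice, so the genotype and the source of the mice cannot be told apart. Neutrophils were taken with magnetic beads against Ly-6G. The labels and the methods give different ratios of yeast cells to neutrophils, and neither says how many mice a culture came from nor that the libraries are separate cultures, so the p-values below measure the spread between these libraries, which may be technical.

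Neutrophils are not only killers of fungi but also release cytokines when pattern recognition receptors such as Dectin-1 and Dectin-2 bind the fungal wall. TNF and IL-6 promote inflammation, IL-10 and TGF-beta restrain it, IL-12 and IL-23 direct T cell responses, and G-CSF (Csf3) and M-CSF (Csf1) drive the production and survival of neutrophils and of monocytes and macrophages. Many of these transcripts are short-lived because proteins of the tristetraprolin family bind AU-rich sequence in the 3′ untranslated region, whose core is the pentamer ATTTA, and bring the mRNA to decay.

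To show how unlike these transcripts are in that respect, the 30-base stretches of the 3′ untranslated region with the most ATTTA pentamers are given for Tnf, which did not pass the test between genotypes, and for the 3 members that fell in PGRN KO. The pentamers are in capitals, and positions are on GRCm38 (GENCODE M21 annotation). No stretch of this length in Il10 held more than 1 pentamer, and the first that held 1 is shown.
Tnf (chr17:35199679-35199708, minus strand): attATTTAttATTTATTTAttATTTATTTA
Il10 (chr1:131024372-131024401, plus strand): cctcgtttgtacctctctccgaaatATTTA
Osm (chr11:4240939-4240968, plus strand): aatccgttttatATTTAtaaggcctATTTA
Csf1 (chr3:107741109-107741138, minus strand): tttatataaggtcATTTAaatatctATTTA
The Tnf region held 8 pentamers in 764 bases, and 5 copies of the nonamer TTATTTATT, counting overlapping copies. Of the 10866 tested protein-coding genes with an annotated 3′ untranslated region, 8 reached 5 copies (0.0736%) and 799 held a nonamer (7.35%). Among the members, 2 held a nonamer, Tnf and Il23a, the latter with 1 copy. The Il10 region held 6 pentamers in 706 bases, that of Osm held 6 in 1017 bases and that of Csf1 held 4 in 2111 bases, none with a nonamer. Among the other members, Il6, Il12b, Il23a and Csf3 held 6 each, and Il15 and Tgfb1 held 1 each. These members also did not pass. Their densest 30-base stretches held 4 pentamers in Il12b, 3 in Csf3, 2 each in Il6 and Il23a, and 1 each in Il15 and Tgfb1. At least 4 pentamers were found in 8 of 10 members against 25.9% of those genes, and at least 6 in 7 of 10 members against 15.1%. A match describes the sequence and shows neither a bound protein nor a decay rate.

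Promoter sequence was at hand for 5 of the 10 members in the RefSeq table used (Tnf, Il6, Il12b, Csf1 and Tgfb1; build GRCm38.p6, 250 bases before the start site to 50 after it). Those of Csf1, which fell in PGRN KO, and of Tnf and Il6, which did not pass, are given 5′ to 3′ with motif matches in capitals.
Csf1 (chr3:107760420-107760719, minus strand): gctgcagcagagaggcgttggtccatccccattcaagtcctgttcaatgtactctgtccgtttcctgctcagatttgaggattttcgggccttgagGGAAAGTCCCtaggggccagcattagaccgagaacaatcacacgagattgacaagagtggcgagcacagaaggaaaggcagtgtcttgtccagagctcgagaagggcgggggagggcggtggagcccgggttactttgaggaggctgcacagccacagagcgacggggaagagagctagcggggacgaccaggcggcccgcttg
Tnf (chr17:35201958-35202257, minus strand): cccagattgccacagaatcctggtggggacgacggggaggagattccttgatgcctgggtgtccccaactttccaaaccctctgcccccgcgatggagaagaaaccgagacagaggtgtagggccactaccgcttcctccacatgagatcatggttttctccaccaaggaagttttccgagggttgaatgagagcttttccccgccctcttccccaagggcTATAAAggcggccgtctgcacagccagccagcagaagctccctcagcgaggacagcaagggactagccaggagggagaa
Il6 (chr5:30012864-30013163, plus strand): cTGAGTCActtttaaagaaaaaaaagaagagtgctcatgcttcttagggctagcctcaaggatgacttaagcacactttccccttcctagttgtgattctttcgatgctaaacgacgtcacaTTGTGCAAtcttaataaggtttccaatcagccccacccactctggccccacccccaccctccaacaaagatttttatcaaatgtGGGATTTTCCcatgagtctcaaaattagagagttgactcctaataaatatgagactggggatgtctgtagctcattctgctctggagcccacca
The capitals in Csf1 mark a match to the NF-kB consensus on the opposite strand, whose left edge is at -154 bases from the start site. Those in Tnf mark the TATA box letters TATAAA at -29. Those in Il6 mark, from left to right, the AP-1 letters TGANTCA at -249, the C/EBP letters TTGCNNAA on the opposite strand at -128, and the NF-kB consensus at -44. The Tgfb1 promoter held an NF-kB consensus match at -140, and that of Il12b held none of the motifs searched. Both strands were searched, also for the CRE letters TGACGTCA and the STAT letters TTCNNNGAA. Of 32851 promoters of the same length, 8.46% held the NF-kB consensus, 13.6% TATAAA, 7.81% the AP-1 letters, 10.8% the C/EBP letters, 1.79% the CRE letters and 8.30% the STAT letters.

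The values are FPKM, that is fragments scaled to the length of the gene and the size of the library, as the authors deposited them. The WT libraries held 17290604 to 17799798 fragments, and the PGRN KO libraries held 17087344 to 18821091. Grn stood at 168, 161 and 166 FPKM in WT replicates 1 to 3 and at 0.242, 0.206 and 0.747 FPKM in PGRN KO replicates 4 to 6, as the genotype labels state. Fold changes are differences of mean log2(FPKM + 1), PGRN KO minus WT, tested with limma across the 14807 genes whose FPKM averaged 0.1 or more, and a gene is said to have risen or fallen where the Benjamini-Hochberg adjusted p was under 0.05. Of the genes tested, 1175 rose (7.94%) and 1473 fell (9.95%), 17.9% in all. With libraries scaled by their plain totals of fragments in place of the authors' library sizes, 2149 rose and 934 fell.

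Of the 10 cytokine transcripts, 3 fell in PGRN KO neutrophils and none rose (3 also at an unadjusted p under 0.05, all lower). Of all tested genes, 17.9% were called and 9.95% fell. In a fit limited to the 9249 genes averaging 1 FPKM or more, 31.0% were called and 17.3% fell. There the same 3 fell, of 9 members tested. The 3 were Il10, Osm and Csf1, whose mean FPKM differed from WT by -34.6%, -37.1% and -26.6%. Their genotypes did not overlap, and the other 7 overlapped. Of all tested genes, 19.6% were lower without overlap, and 37.7% did not overlap in either direction. The median log2 fold change of the 10 members was -0.16, beside 0.0026 over all genes tested, with 7 members below 0 and 3 above. With plain totals the member median was -0.054 beside 0.067 over all genes, and without WT replicate 1 it was -0.087.

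**Figure D1:**
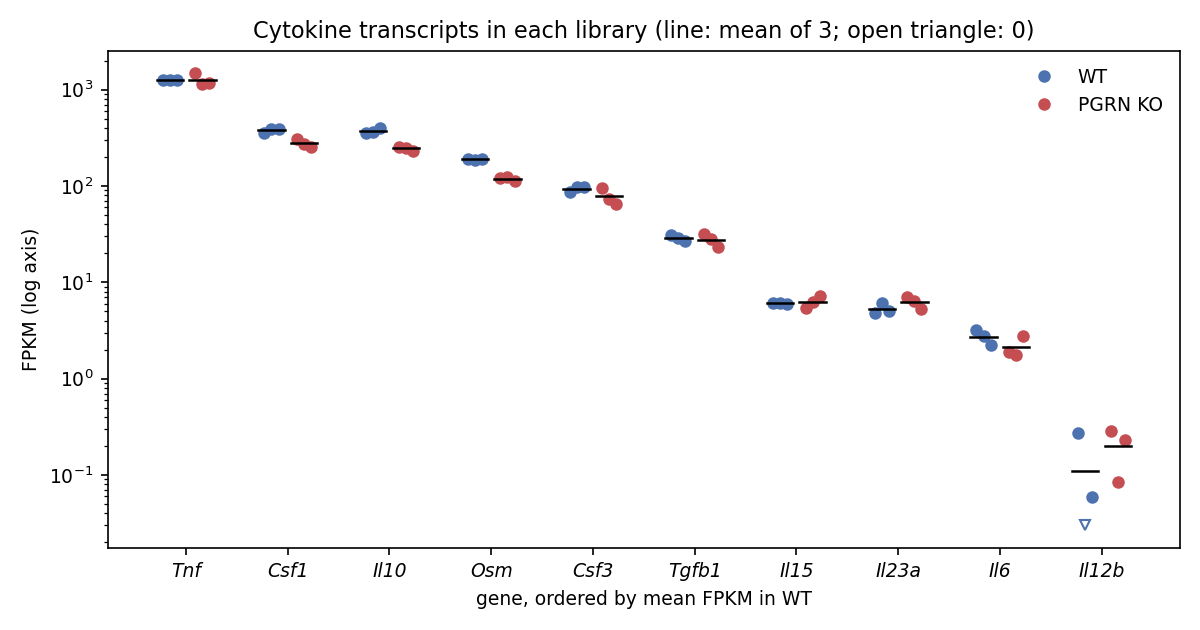
FPKM, on a log axis, of each of the 10 cytokine transcripts in the 3 WT and the 3 PGRN KO libraries. Each point is 1 library, the line is the mean of 3 and the open triangle is the library with Il12b at 0. Il10, Osm and Csf1 sit lower in all PGRN KO libraries, while the 2 groups overlap for the other 7 cytokines.

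The order of the transcript levels was the same in both genotypes and spanned from over 1000 FPKM for Tnf to below 1 FPKM for Il12b. In WT, Tnf was 3.35-fold above Csf1, and Csf1 and Il10 overlapped in range. Osm, Csf3 and Tgfb1 followed, each below the lowest library of the member before it. Il15 and Il23a overlapped again, and Il6 and Il12b stood last, each clear of its neighbor. In PGRN KO the same 2 pairs overlapped and the same neighbors were separate, with Tnf 4.58-fold above Csf1. Tnf made up 54.0% of the summed FPKM of the 10 members in WT and 62.5% in PGRN KO. That sum was 2297 to 2386 FPKM in WT libraries and 1888 to 2307 FPKM in PGRN KO libraries, so the ranges overlapped.

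Among the members that restrain inflammation, Il10 encodes IL-10, which acts through STAT3 to lower cytokine output of myeloid cells. Il10 (ENSMUSG00000016529, chr1:131019845-131024974, plus strand) stood at 357, 366 and 403 FPKM in WT and at 257, 247 and 232 FPKM in PGRN KO. All 3 PGRN KO libraries were below all 3 WT libraries. The mean was 375 ± 24.3 FPKM in WT and 245 ± 12.4 FPKM in PGRN KO (SD, n = 3 each), and the log2 fold change was -0.61 (SE 0.062, 95% interval -0.76 to -0.46, adjusted p = 0.00169 by limma). Il10 remained called in each of the 17 alternative fits, with log2 fold changes from -0.65 to -0.49.

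Tgfb1 encodes TGF-beta 1, which is secreted in a latent form and released by proteases, integrins or thrombospondin. Tgfb1 (ENSMUSG00000002603, chr7:25687002-25705077, plus strand) stood at 30.8, 28.9 and 26.7 FPKM in WT and at 32.0, 28.0 and 23.3 FPKM in PGRN KO. The lowest and the highest library were both PGRN KO, and the groups overlapped. Its log2 fold change was -0.059 (SE 0.11, 95% interval -0.33 to 0.21, adjusted p = 0.771 by limma).

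Osm encodes oncostatin M, an IL-6 family cytokine stored and secreted by neutrophils that acts on stromal and endothelial cells. Osm (ENSMUSG00000058755, chr11:4236420-4241026, plus strand) stood at 189, 187 and 191 FPKM in WT and at 121, 123 and 113 FPKM in PGRN KO. The WT libraries lay close together and all of them were above every PGRN KO library. The mean was 189 ± 2.14 FPKM in WT and 119 ± 4.88 FPKM in PGRN KO (SD, n = 3 each), and the log2 difference was -0.66 (SE 0.043, 95% interval -0.77 to -0.56, adjusted p = 0.000352 by limma). Osm had the most negative log2 fold change of the 10 members, and it remained called in each of the 17 alternative fits, from -0.69 to -0.55.

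Il6, the namesake of that family, drives the acute phase response. Il6 (ENSMUSG00000025746, chr5:30013114-30019981, plus strand) was low, at 3.20, 2.74 and 2.21 FPKM in WT and 1.89, 1.75 and 2.74 FPKM in PGRN KO, from 335 and 290 fragments. PGRN KO replicate 6 lay among the WT libraries, so the groups overlapped. Its log2 fold change was -0.25 (SE 0.15, 95% interval -0.61 to 0.099, adjusted p = 0.296 by limma), and this interval includes 0.

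The 2 colony-stimulating factors stood at different levels. Csf1 (ENSMUSG00000014599, chr3:107741048-107760469, minus strand), the macrophage factor, was at 355, 387 and 392 FPKM in WT and at 308, 272 and 253 FPKM in PGRN KO. The highest PGRN KO library, replicate 4, was still below the lowest WT library. The mean was 378 ± 20.3 FPKM in WT and 277 ± 27.8 FPKM in PGRN KO (SD, n = 3 each), and the log2 fold change was -0.45 (SE 0.080, 95% interval -0.64 to -0.26, adjusted p = 0.0117 by limma). The call of Csf1 was lost without WT replicate 2 (adjusted p = 0.0574 by limma), without WT replicate 3 (0.0514) and without PGRN KO replicate 5 (0.0567), with log2 fold changes of -0.53 to -0.38 over the 6 fits that each left a library out.

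Csf3 (ENSMUSG00000038067, chr11:98701263-98703629, plus strand), the granulocyte factor G-CSF, was at 87.6, 97.2 and 97.2 FPKM in WT and at 95.6, 72.7 and 65.3 FPKM in PGRN KO. Replicate 4 of PGRN KO lay within the WT range while the other 2 lay below it. Its log2 fold change was -0.29 (SE 0.13, 95% interval -0.61 to 0.035, adjusted p = 0.202 by limma). Without PGRN KO replicate 4 it was -0.44 and passed (adjusted p = 0.0197 by limma). With all libraries Csf3 passed in 1 of 11 alternative fits, voom on fragments with the authors' library sizes (adjusted p = 0.0233 by limma).

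For Il10, Osm and Csf1 an exact two-sided permutation test over the libraries gave p = 0.1 each, the smallest that 3 against 3 libraries allow. In these bulk libraries fewer cells of a type and less RNA per cell cannot be told apart.

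**Figure D2:**
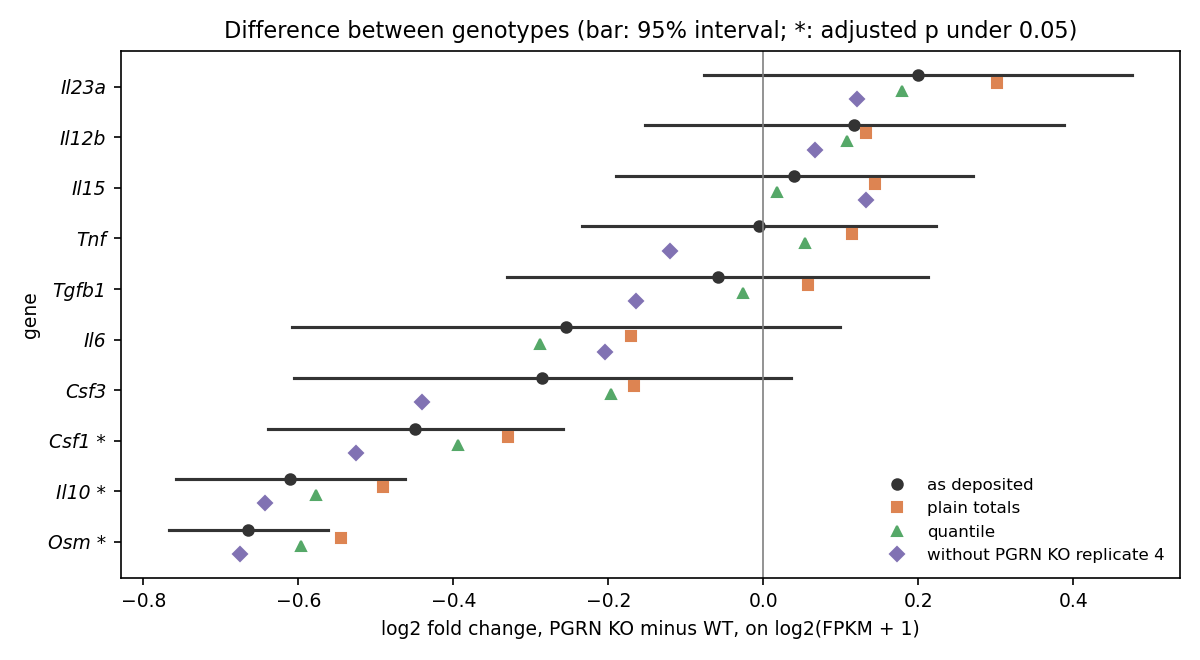
Log2 fold change of each cytokine transcript, PGRN KO minus WT, on log2(FPKM + 1), with its 95% interval from limma (black). Squares, triangles and diamonds are the same difference with plain totals of fragments, with quantile normalization and without PGRN KO replicate 4, and an asterisk marks an adjusted p under 0.05. The intervals of Osm, Il10 and Csf1 lie wholly below 0, and those of the other 7 cytokines include 0.

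Tnf encodes TNF, the founding cytokine of its family, made as a membrane protein and shed by ADAM17. Tnf (ENSMUSG00000024401, chr17:35199381-35202007, minus strand) was the most abundant member and ranked 33 by mean FPKM among all genes tested. It stood at 1263, 1277 and 1263 FPKM in WT and at 1480.0, 1147 and 1186 FPKM in PGRN KO, so replicate 4 of PGRN KO was above and the other 2 were below every WT library. The coefficient of variation was 0.625% in WT and 14.3% in PGRN KO, where the 2781 genes averaging 1000 fragments or more had medians of 3.90% and 5.43%. The log2 fold change was -0.0057 (SE 0.096, 95% interval -0.23 to 0.22, adjusted p = 0.976 by limma), and its sign turned to 0.11 with plain totals of fragments and 0.054 with quantile normalization.

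Both members of the IL-12 family were low in abundance. Il23a encodes the p19 subunit that pairs with p40 to form IL-23, and Il12b encodes p40 itself. Il23a (ENSMUSG00000025383, chr10:128296139-128298752, minus strand) stood at 4.79, 6.14 and 5.02 FPKM in WT and at 7.06, 6.37 and 5.34 FPKM in PGRN KO, with WT replicate 2 inside the PGRN KO range. Its log2 fold change was 0.20 (SE 0.12, 95% interval -0.076 to 0.48, adjusted p = 0.293 by limma). It passed in 1 of the 17 alternative fits, voom on fragments with plain totals (0.35, adjusted p = 0.0404).

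Il12b (ENSMUSG00000004296, chr11:44400063-44414033, plus strand) rested on 9, 0 and 2 fragments in WT and 10, 3 and 9 in PGRN KO, or 0.269, 0 and 0.0594 FPKM against 0.285, 0.0840 and 0.233 FPKM. The groups overlapped, and 3 fragments, the upper limit that a count of 0 allows, came to 0.0776 to 0.0914 FPKM. The log2 fold change was 0.12 (SE 0.11, 95% interval -0.15 to 0.39, adjusted p = 0.528 by limma), and no difference was detectable at this depth. The size of this value depended on the amount added before the log, reaching 1.71 with 0.01 added. Over the 10 alternative fits with all libraries it was 0.11 to 1.71 (adjusted p = 0.140 to 0.583 by limma), and leaving out each library in turn gave 0.046 to 0.22.

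Il15 encodes IL-15, which sustains NK cells and memory CD8+ T cells. Il15 (ENSMUSG00000031712, chr8:82331632-82403222, minus strand) stood at 6.09, 6.05 and 6.02 FPKM in WT and at 5.38, 6.21 and 7.29 FPKM in PGRN KO. The WT libraries fell inside the wider PGRN KO range. The log2 fold change was 0.040 (SE 0.097, 95% interval -0.19 to 0.27, adjusted p = 0.817 by limma).

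Replicate 4 was the highest of the 3 PGRN KO libraries for 7 of the 10 members, against 35.9% of all tested genes. This count was made after the values were seen. It did not hold for Il6 and Il15, highest in replicate 6, nor for Osm, highest in replicate 5.

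Ratios of members within a library do not depend on how the library was scaled, except through the amount added to each value. That amount matters where a member is near it, as Il12b is. The ratio of Tnf to Il10, after adding 0.1 FPKM to each, was 3.54, 3.48 and 3.13 in WT and 5.76, 4.63 and 5.11 in PGRN KO. All PGRN KO libraries were above all WT libraries, with a difference of 0.61 in log2 ratio or 1.52-fold (exact permutation p = 0.1, the smallest possible, and 0.15 adjusted over 3 ratios). The ratio of Csf3 to Csf1 was 0.247, 0.251 and 0.248 in WT and 0.311, 0.268 and 0.259 in PGRN KO, also without overlap (log2 difference 0.16, exact permutation p = 0.1, adjusted 0.15). Without PGRN KO replicate 4 that difference was 0.082. The ratio of Il12b to Il23a was 0.0755, 0.0160 and 0.0312 in WT and 0.0538, 0.0284 and 0.0611 in PGRN KO, which overlapped (exact permutation p = 0.7).

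**Figure D3:**
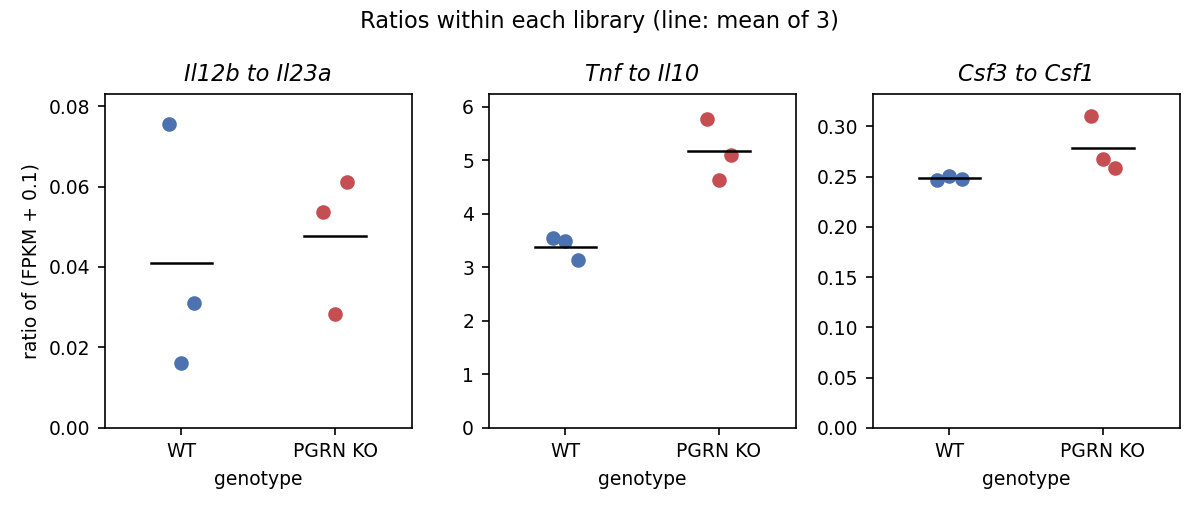
Ratios of pairs of cytokine transcripts within each library, as (FPKM + 0.1) over (FPKM + 0.1), with linear axes from 0. Points are libraries and lines are the means of 3. Tnf to Il10 lies between 3.13 and 3.54 in WT libraries and between 4.63 and 5.76 in PGRN KO libraries, and Il12b to Il23a overlaps.

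The partner subunits and sister cytokines of the members (16 genes, 9 tested) showed 1 gene that rose and none that fell, with a median log2 fold change of -0.082 that turned to 0.038 with plain totals. For this list and those below, the shares over all tested genes were 9.95% that fell and 7.94% that rose. Among genes averaging 1 FPKM or more, tested alone, these shares were 17.3% and 13.7%. Il12a, which encodes the p35 subunit of IL-12, rose from 10.8, 9.76 and 11.4 FPKM in WT to 15.9, 13.6 and 14.3 FPKM in PGRN KO. The groups did not overlap (log2 fold change 0.42, SE 0.079, adjusted p = 0.0142 by limma), and the call was lost without WT replicate 2 (0.36, adjusted p = 0.0542). So of the IL-12 subunits, p35 transcript was above 9 FPKM in every library while p40 transcript stayed below 0.3 FPKM.

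The other 8 tested partners did not pass. Ebi3, which pairs with p28 to form IL-27, was abundant at 226 to 236 FPKM in WT and 199 to 235 FPKM in PGRN KO. Il27, which encodes p28, was at 6.58 to 8.13 FPKM and 6.13 to 8.18 FPKM. Lif, a relative of oncostatin M, was at 1.64 to 1.81 FPKM in WT and 1.94 to 2.21 FPKM in PGRN KO, without overlap (log2 fold change 0.18, adjusted p = 0.122 by limma). Ltb and Lta, which lie beside Tnf and encode lymphotoxins, had log2 fold changes of 0.11 and -0.12, Clcf1 -0.17, Il19 -0.23 and Csf2 -0.17, the last from 13 and 7 fragments. Leaving out each library in turn gave 0.0073 to 0.18 for Ltb, -0.23 to -0.025 for Lta, -0.29 to -0.076 for Clcf1, -0.36 to -0.088 for Il19 and -0.31 to -0.029 for Csf2.

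Among 30 other secreted cytokines, 15 were tested, of which 6 fell and 1 rose, with a median of -0.29. Vegfa, the vascular growth factor, fell from 93.7, 94.3 and 83.1 FPKM to 56.3, 52.3 and 48.8 FPKM (log2 fold change -0.77, adjusted p = 0.0013 by limma). Tnfsf14, which encodes LIGHT, fell from 13.8, 13.3 and 11.7 FPKM to 7.43, 6.71 and 7.30 FPKM (-0.77, adjusted p = 0.00136 by limma). Neither gene's groups overlapped. Tnfsf13b, which encodes BAFF, fell at a log2 fold change of -0.53, Hbegf at -0.50, Tnfsf15 at -0.48 and Tnfsf9 at -0.44. Tslp, an alarm cytokine of barrier tissues, was at 0.155 to 0.212 FPKM in WT and rose to between 0.632 and 0.898 FPKM in PGRN KO, on 10 and 49 fragments. Vegfa, Tnfsf14, Tnfsf13b and Tslp remained called in every alternative fit that tested them, and 3 genes of this list fell without WT replicate 2 or PGRN KO replicate 5. Mif at 742 to 793 FPKM in WT and 750.2 to 786 FPKM in PGRN KO, and Spp1 at 595 to 737 and 518 to 599.6 FPKM, did not pass. Il2, Il3, Il9, Il17a, Il21, Il25 and Ifng were at 0 in all 6 libraries.

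**Figure D4:**
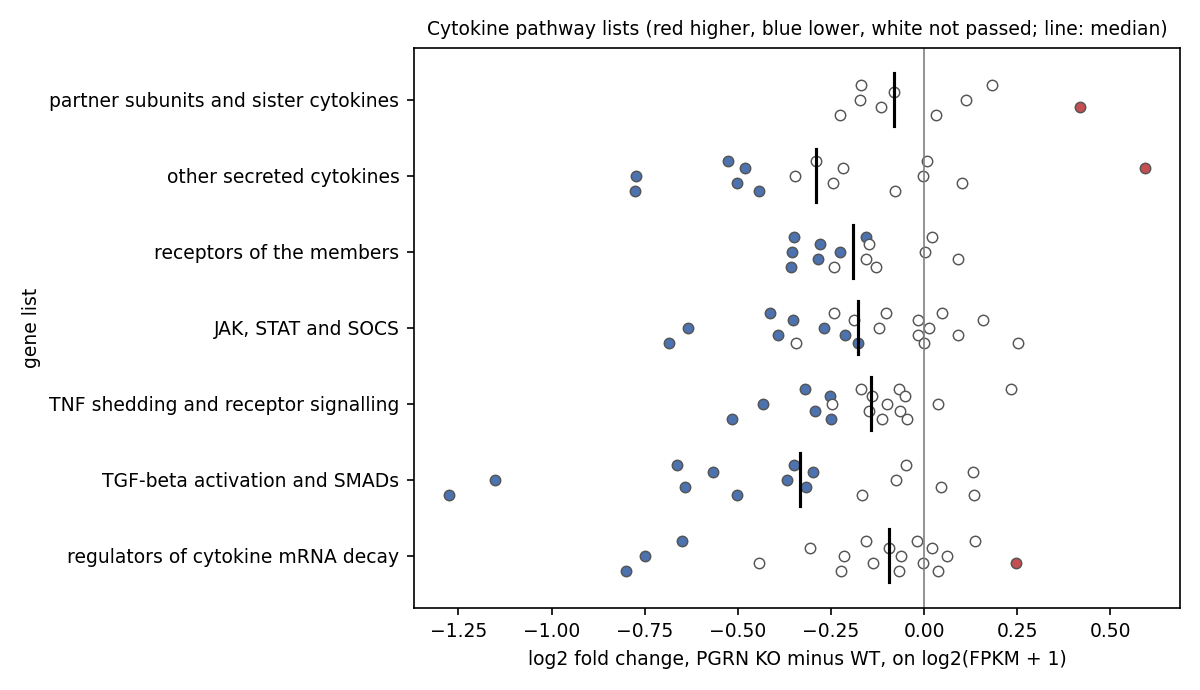
Log2 fold change, PGRN KO minus WT, of each tested gene in 7 lists around the cytokine members, with the list median as a line. Red points rose, blue points fell and white points did not pass. In all, 40 of the 112 tested genes fell and 3 rose. Of all tested genes, 9.95% fell and 7.94% rose. In the fit limited to genes averaging 1 FPKM or more, 17.3% of genes fell and 13.7% rose.

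The receptors through which the members act (19 genes, 14 tested) held 7 that fell and none that rose, with a median of -0.19. Il10rb, the shared chain of the IL-10 receptor, fell from 64.4, 62.9 and 63.8 FPKM to 49.0, 50.3 and 49.5 FPKM (log2 fold change -0.36, adjusted p = 0.0017 by limma). Tnfrsf1b, which encodes TNF receptor p75, fell from 736, 753 and 789 FPKM to 633, 566 and 579 FPKM (-0.36, adjusted p = 0.00801 by limma). Il15ra fell from 4.81, 4.85 and 5.21 FPKM to 3.78, 3.70 and 3.56 FPKM (-0.35, adjusted p = 0.00965 by limma). The groups of these 3 receptors did not overlap.

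Il6ra and Il6st, the 2 chains of the IL-6 receptor, Tnfrsf1a and Csf3r also passed at -0.28, -0.28, -0.22 and -0.16. The calls of Il6ra and Il6st were lost when any library was left out (adjusted p = 0.0624 to 0.136 by limma), and those of Tnfrsf1a and Csf3r when any library other than PGRN KO replicate 4 was left out (0.0645 to 0.125). Csf1r at 44.6 to 47.0 FPKM in WT and 38.0 to 42.4 FPKM in PGRN KO and Il10ra at 47.7 to 51.1 and 42.1 to 48.2 FPKM did not pass. With plain totals 3 receptors fell and 1 rose, and leaving out WT replicate 1, 2 or 3 or PGRN KO replicate 5 or 6 left 3 that fell. Il10rb and Il15ra remained called in each of the 17 alternative fits, while Tnfrsf1b did not pass with quantile normalization (-0.19, adjusted p = 0.117 by limma).

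Of the JAK kinases, STAT factors and SOCS inhibitors that carry or brake these signals (22 genes, 21 tested), 8 fell and none rose, with a median of -0.18. Stat5a fell from 8.96, 9.25 and 8.78 FPKM to 5.95, 5.04 and 4.71 FPKM (log2 fold change -0.69, adjusted p = 0.00284 by limma). Socs3, a feedback inhibitor induced by STAT3, fell from 203, 199 and 187 FPKM to 165, 110 and 111 FPKM (-0.63, adjusted p = 0.0333 by limma), with replicate 4 the highest of PGRN KO, and its call was lost when any library other than PGRN KO replicate 4 was left out (adjusted p = 0.0872 to 0.115 by limma). Jak1 and Stat3, which serve IL-10, oncostatin M and IL-6, fell at -0.41 and -0.35. Jak2 fell at -0.39, and Pias1, Stat2 and Stat6 also passed. Ptpn6 and Tyk2 did not pass. With plain totals 4 fell and 1 rose, and 4 fell without WT replicate 2, WT replicate 3 or PGRN KO replicate 5. Stat5a, Jak1, Jak2 and Stat3 remained called in each of the 17 alternative fits.

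Of the genes that shed TNF or carry its receptor signal (20 genes, 18 tested), 6 fell and none rose, with a median of -0.14. Tnfaip3, which encodes the NF-kB inhibitor A20, fell from 212, 223 and 233 FPKM to 182, 144 and 144 FPKM (log2 fold change -0.51, adjusted p = 0.0144 by limma). The call of Tnfaip3 was lost without WT replicate 2, WT replicate 3 or PGRN KO replicate 5 (adjusted p = 0.0610 to 0.0625 by limma). Its partner Tnip1 fell at -0.43 and Cflar, which blocks caspase-8, at -0.32. Adam17, the TNF sheddase, and Rhbdf2, its trafficking partner, fell at -0.25 and -0.29, and Birc3 at -0.25. Map3k8 and Traf1 did not pass. With plain totals 2 fell and 1 rose. Only Cflar of the 6 remained called in each of the 17 alternative fits. In this list 1 gene fell without WT replicate 2, WT replicate 3 or PGRN KO replicate 5, and 3 without WT replicate 1 or PGRN KO replicate 6. Without PGRN KO replicate 5, 1 gene also rose.

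Of the genes that hold, activate or transduce TGF-beta (21 genes, 16 tested), 10 fell and none rose, with a median of -0.33. Thbs1, which encodes thrombospondin 1, an activator of latent TGF-beta, fell from 163, 179 and 186 FPKM to 74.8, 68.1 and 72.9 FPKM (log2 fold change -1.28, adjusted p = 0.000139 by limma). Lrrc32 and Nrros, which encode GARP and a relative that hold latent TGF-beta on the cell surface, fell at -1.15 and -0.66 (adjusted p = 0.000579 and 0.000205 by limma). Nrros stood at 103, 102 and 102 FPKM in WT and 63.7, 62.9 and 65.5 FPKM in PGRN KO.

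The signal transducers Smad3 and Smad4 fell at -0.64 and -0.32, the processing protease Furin at -0.50, and the repressors Tgif1, Smad7, Skil and Ski at -0.57, -0.37, -0.35 and -0.30. Smad2 and Smurf2 did not pass. Thbs1, Lrrc32, Nrros, Smad3, Smad4 and Tgif1 remained called in each of the 17 alternative fits. Of the 6 fits that each left a library out, Furin passed in 1, Smad7 in 3, Skil in 4 and Ski in 5. With plain totals 9 fell and none rose, so around Tgfb1, whose own transcript did not pass, genes that assist the signal and genes that restrain it were both among those that fell.

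Of the regulators of cytokine mRNA decay (20 genes, 19 tested), 3 fell and 1 rose, with a median of -0.095 that turned to 0.0023 with plain totals. Dusp1, a phosphatase of p38, fell from 702, 722 and 733 FPKM to 435, 395 and 408 FPKM (log2 fold change -0.80, adjusted p = 0.000294 by limma). Zfp36, which encodes tristetraprolin, fell from 607, 591 and 599.7 FPKM to 466, 389 and 306 FPKM (-0.65, adjusted p = 0.0225 by limma), and the call was lost without any of WT replicates 1 to 3 or PGRN KO replicate 5, with adjusted p = 0.0764 to 0.0794 by limma. Zc3h12c fell at -0.75, and Mapk14, which encodes p38 alpha, rose at 0.25, a call lost without WT replicate 2 (adjusted p = 0.0545 by limma). Dusp1 and Zc3h12c remained called in each of the 17 alternative fits. Mapkapk2, the kinase below p38, at 901 to 938 FPKM in WT and 737 to 863 FPKM in PGRN KO, and Zc3h12a, which encodes Regnase-1, at -0.44 did not pass. Without PGRN KO replicate 4, 6 genes of this list fell.

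Marker genes of other cells moved with the genotype. The 7 promyelocyte markers summed to 206 to 240 FPKM in WT and 708 to 773 FPKM in PGRN KO, with 6 of 7 higher, and 5 of 5 tested B and plasma cell markers and 4 of 5 basophil and mast cell markers were higher too. Of 11 monocyte and macrophage markers, 9 were tested, of which 4 fell (Ccr2, F13a1, Ms4a6c and Irf8) and 1 rose (Ly6c2), and the summed level was 547 to 555 FPKM in WT and 562 to 709.6 FPKM in PGRN KO. Ly6c2 made up most of that sum, and the other 10 markers summed to 147 to 151 FPKM in WT and 111 to 128 FPKM in PGRN KO. Of 8 dendritic cell markers, 4 were tested, of which Ccr7 and Itgax fell. The sum was 31.0 to 32.6 FPKM in WT and 14.1 to 17.7 FPKM in PGRN KO. Most of it was Ccr7, with means of 25.1 FPKM in WT and 11.6 FPKM in PGRN KO, and Itgax, with means of 6.11 and 4.32 FPKM. Xcr1 and Clec9a, with means of 0.424 and 0.174 FPKM in WT, did not pass. Flt3, Siglech, Cd209a and Zbtb46 averaged under 0.1 FPKM and were not tested. Of 8 T and NK cell markers Cd3e and Cd3g were at 0, and of the 2 tested Nkg7 rose. The 10 neutrophil markers summed to 53543 to 57615 FPKM in WT and 55425 to 64042 FPKM in PGRN KO, with 1 higher (Mmp9) and 2 lower (Mmp8 and Csf3r), none of which passed when any WT library was left out. Most of that sum was S100a8, with means of 17949 FPKM in WT and 16846 FPKM in PGRN KO, and S100a9, with means of 31333 and 36371 FPKM. Neither of them passed. With plain totals or quantile normalization 3 neutrophil markers were higher and none lower, and without PGRN KO replicate 4, 3 were higher and 2 lower. The call of Ly6c2 was lost when any library other than PGRN KO replicate 4 was left out, and without WT replicate 1 or PGRN KO replicate 5, 3 B and plasma cell markers rose. Monocytes, macrophages and dendritic cells also make IL-10, oncostatin M and M-CSF, and the part of these markers in the fall of Il10, Osm and Csf1 was not tested.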

How the data were processed

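RNA was sequenced in 6 neutrophil libraries. The submitters' processing notes name CASAVA, HISAT2 2.0.5, featureCounts 1.5.0-p3 and DESeq2 1.20.0 with mm10 and GRCm38, and the methods of the study name other counting software. The authors deposited FPKM values per gene, and the authors' library sizes, not the plain totals of fragments, were the divisor. Values multiplied by gene length gave whole fragments within 0.05 for 100% of the values above 0, so fragments per library were recovered. The ratio of total to library size averaged 1.04 in WT and 0.954 in PGRN KO, a shift of -0.12 on the log2 scale. Intervals and limits from fragments cover counting error only. Of 54532 genes, 31614 were at 0 in all libraries.

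Values were tested as log2(FPKM + 1) in R 4.3.3 by the linear models of limma 3.58.1, whose eBayes step used a trend, two-sided, for the 14807 genes whose FPKM averaged 0.1 or more, with Benjamini-Hochberg adjustment over all of them and a threshold of 0.05. A log2 fold change on this scale understates the change of low genes. Fits used all 6 libraries, grouped by the genotype in their labels. In tests on simulated data with 14807 genes, 200 of them changed, 132 of these were called. Among those whose FPKM averaged 1 or more, 106 of 124 were called. There were 11 false calls, 7.69% of the calls, beside the threshold of 0.05. How often a difference of the size seen in the members would be called was not tested. Python 3.11.15 with pandas 2.3.3 and scipy 1.17.1 was used for exact permutation tests and sequences.

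The members, the 7 gene lists and the 7 marker lists were chosen with earlier results of these data known. A marker gene of the monocyte and macrophage list is not reported here and was left out of its counts and sums. The genes named are Grn, the 10 members, the tested partner genes and, from each other list, the genes that passed, with values for up to 3 in each direction with the largest fold change, and up to 2 with the highest mean that did not pass. Gene positions matched GENCODE M21 on GRCm38 for 53499 of 54409 shared gene IDs, including all 10 members, and no exon of a member overlapped that of another gene. Alternatives were 2 pseudocounts, 2 filters on low values, median-of-ratios, quantile and plain-total scaling, robust or trend-free eBayes, voom on recovered fragments with either library size, and each library left out in turn.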

Additional observations from a re-analysis of the deposited data

How the results depend on the processing

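In 17 alternative fits, Il10 and Osm kept their call and direction in each, and Csf1 in all but 3 that left out a library. Over 74 named genes and 1251 alternative fits, 1080 kept their direction and side of the threshold, 131 lost the call, 18 gained it and 22 changed sign, and none of the 47 genes called changed sign. With plain totals of fragments 2149 genes were higher and 934 lower in PGRN KO, and with voom on plain totals 4236 genes were called, 2984 of them higher, where the median log2 fold change of all genes moved to 0.12. In these fits 7 and 12 list genes were higher, against 3. The log2 fold change of Tnf turned to 0.054 with quantile normalization, 0.11 with plain totals and 0.11 with voom on plain totals, and in the last 2 that of Tgfb1 turned to 0.057 and 0.057, Ebi3 to 0.038 and 0.037, Map3k8 to 0.050 and 0.051 and Ptpn6 to 0.018 and 0.019. Plain totals raise PGRN KO relative to WT by construction. Members called were 3 in the reported fit, 2 without WT replicate 2, WT replicate 3 or PGRN KO replicate 5, and 4 without PGRN KO replicate 4 or with voom. Leaving out each library in turn gave 1322 to 2161 genes called, 540 to 913 higher and 775 to 1248 lower, and 21 to 39 list genes called, 1 to 4 higher and 20 to 36 lower. It gave log2 fold changes of -0.12 to 0.064 for Tnf, -0.057 to 0.13 for Il15, -0.16 to 0.057 for Tgfb1, -0.038 to 0.14 for Il27, -0.014 to 0.034 for Mif, -0.023 to 0.11 for Smad2 and -0.035 to 0.11 for Tyk2, and differences of -0.096 to 1.02 in the log2 ratio of Il12b to Il23a. The cause of the other changes was not tested. Il12b was not tested in the fit limited to a mean FPKM of 1 or more, and its ratio could not be formed without the added 0.1 because WT replicate 2 was at 0. No paired analysis was possible because the genotypes share no replicate numbers. Depth limits Il12b, with 11 fragments in WT and 22 in PGRN KO.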
